A study of Homo sapiens with 16 samples.

Results

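The cadherin gene starts examined were those of CDH1, CDH2, CDH3, CDH4, CDH5, CDH6, CDH11 and CDH13, and the peaks counted were those within 5 kb of each start on hg19. These 8 windows held 34 of the 193384 peaks in the 12 lists, 24 in lists of MCF-10A and 10 in lists of MDA-MB-231. MCF-10A is a non-tumorigenic human breast epithelial line, labelled as luminal ductal cells, and MDA-MB-231 is a human breast cancer line that the labels describe as derived from a metastatic site. Both were untreated as far as the labels tell and were grown to subconfluence. Chromatin immunoprecipitation and sequencing (ChIP-seq) of H3K4me3, H3K27me3 and H3K9me2 had been done 2 times for each mark in each line, and the labels name these biological replicates. Each line is a single established culture, so the spread between replicates is not that between donors. The 4 inputs were not analysed here.

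Cadherins are calcium-dependent adhesion receptors that hold neighbouring cells together by binding a like molecule on the next cell, and most of them link through catenins to the actin cytoskeleton. E-cadherin, from CDH1, is the receptor of epithelial adherens junctions, and in breast cancer its loss with a gain of N-cadherin, from CDH2, or of OB-cadherin, from CDH11, is a familiar sign of a shift towards a mesenchymal state. H3K4me3 marks active and poised promoters, H3K27me3 is placed by Polycomb repressive complex 2, and H3K9me2 marks silenced chromatin. A list of peaks shows where a mark was called and says nothing on RNA or protein.

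The sequence before the CDH2 start is shown because CDH2 is known as a gene of neural and mesenchymal cells, while its start carried H3K4me3 in MCF-10A and not in MDA-MB-231. CDH2 was the only member whose own start had an entry in the RefSeq promoter table used here. The 250 bases before that start, on the minus strand of GRCh38.p14 at chr18:28177131-28177380, are printed 5′ to 3′ with each CpG in capitals.
CDH2 promoter: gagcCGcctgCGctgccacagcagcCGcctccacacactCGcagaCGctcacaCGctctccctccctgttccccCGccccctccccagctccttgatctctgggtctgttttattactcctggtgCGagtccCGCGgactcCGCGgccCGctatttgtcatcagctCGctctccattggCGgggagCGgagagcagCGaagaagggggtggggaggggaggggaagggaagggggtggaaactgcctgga
The stretch held 17 CpG at 66% GC, against medians of 11 CpG and 58% GC in the same 250 bases of all 35116 RefSeq promoters, of which 38.95% held as many CpG or more. The motif GGGCGG, read on both strands, occurred 1 time and was present in 42.64% of all promoters. The motifs CACCTG and TATAAA were not in this window, and 17.49% and 10.72% of all promoters held them. The sequence is on another build than the peaks, and its distance from the hg19 start was not worked out.

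H3K4me3 was found at 6 of the 8 starts and H3K27me3 at all 8 when a peak in a single list sufficed, and H3K9me2 at none. H3K4me3 gave 18 of the 34 peaks, 196 to 4052 bp wide with a median of 1687 bp, and 12 of them lay over the start itself. H3K27me3 gave the other 16, of which 5 lay over a start. CDH1, CDH2, CDH3 and CDH13 had H3K4me3 in both lists of MCF-10A and in neither of MDA-MB-231, a pattern of 5.91% of all H3K4me3 regions. CDH4 had it in all 4 lists, as had 68.5% of all regions. CDH11 had a broad peak over the start in both MDA-MB-231 lists only, a pattern of 6.27% of all regions. H3K27me3 was in both lists of MCF-10A and in neither of MDA-MB-231 at CDH5, CDH11 and CDH13, and the reverse at CDH4, patterns of 11.1% and 2.99% of all H3K27me3 regions. Apart from CDH11 for H3K4me3, classed by its broad peak, starts were classed by any peak within 5 kb. The shares are of single regions made of overlapping peaks, so the measures are unlike. Shares of all gene starts were not worked out.

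**Figure D1:**
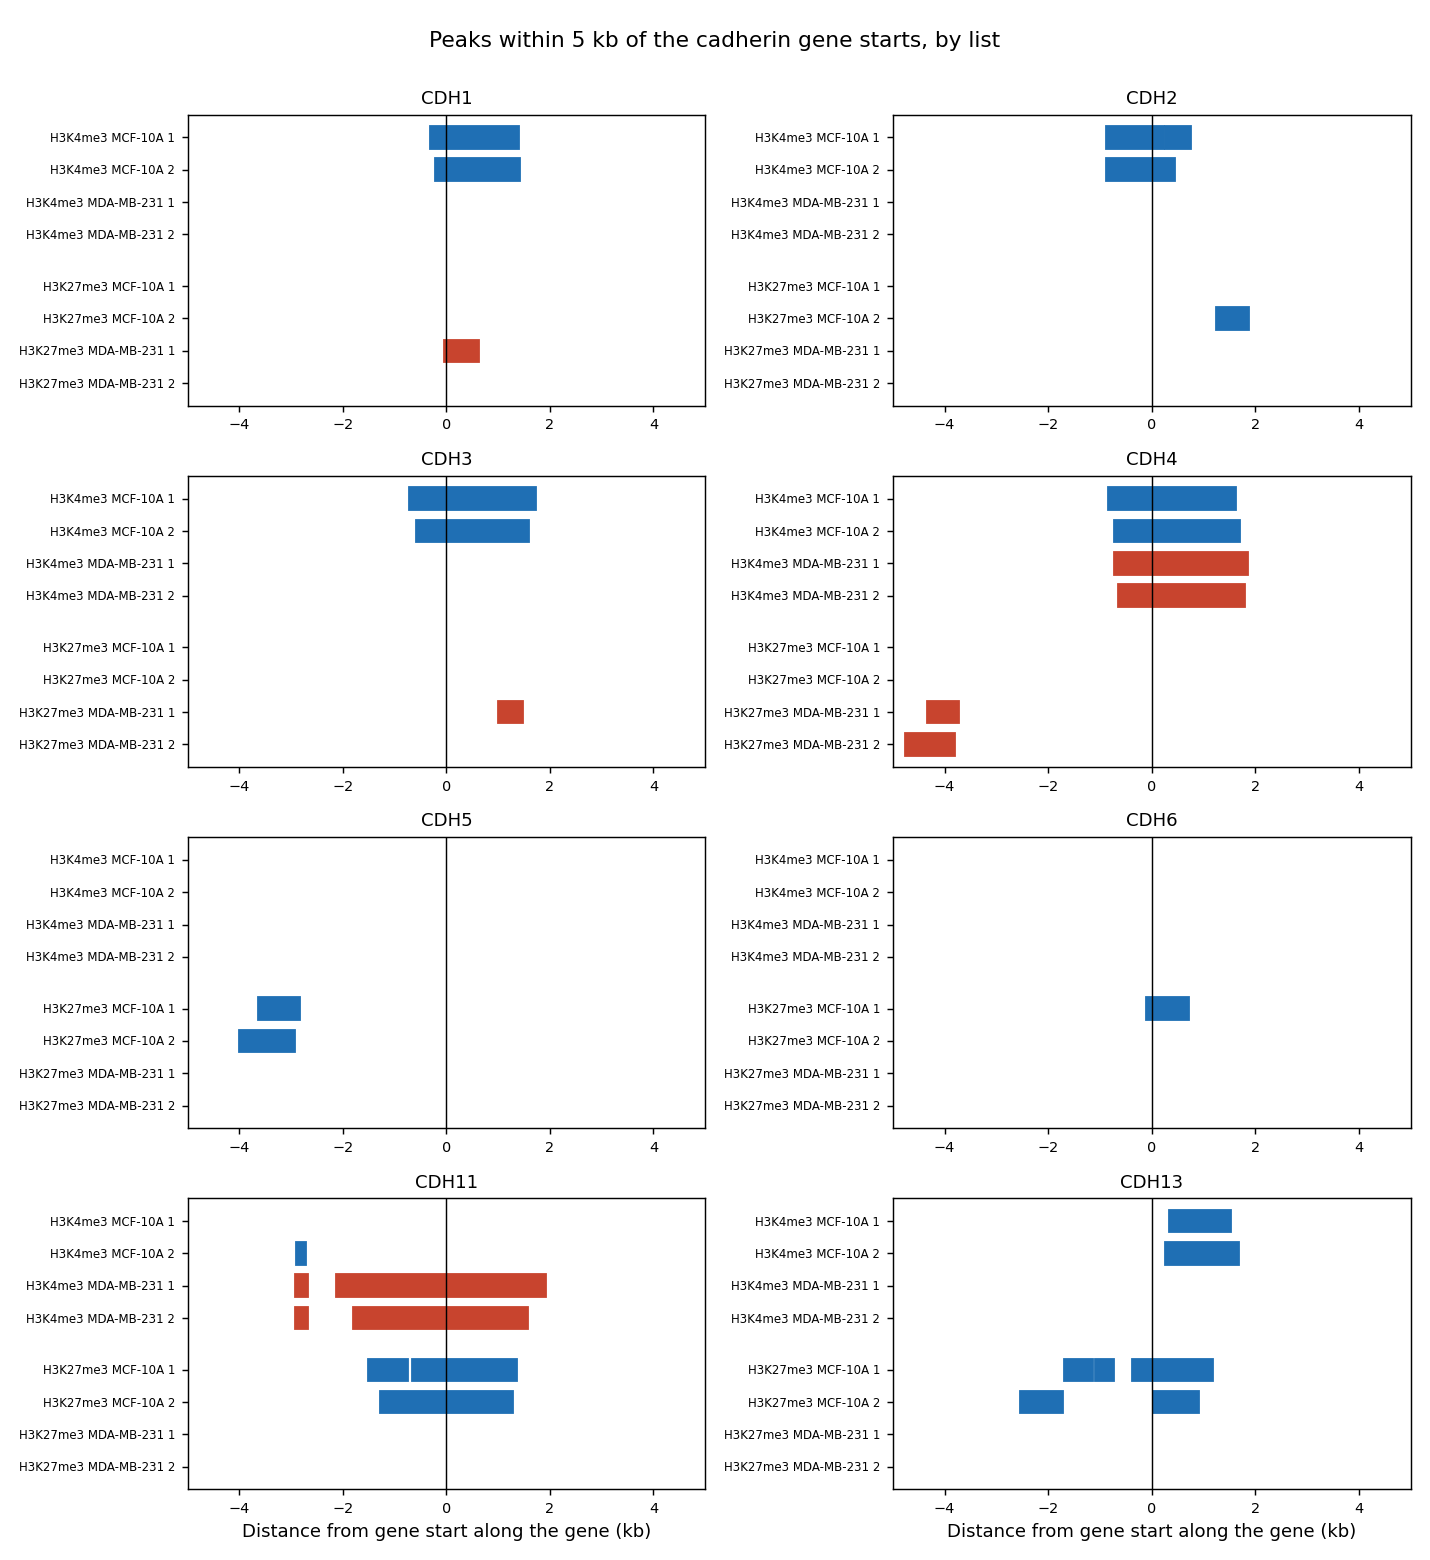
Peaks within 5 kb of each cadherin start, drawn as bars to scale against the distance from the start along the gene in kb (negative is upstream), with 1 row for each H3K4me3 and H3K27me3 list, MCF-10A in blue and MDA-MB-231 in red. CDH1, CDH2, CDH3 and CDH13 show H3K4me3 bars in the MCF-10A rows only, CDH4 in all 4, and CDH11 shows wide bars in MDA-MB-231 where MCF-10A has H3K27me3.

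The H3K4me3 lists were of like length, with 15625 and 16843 peaks in MCF-10A and 16627 and 16244 in MDA-MB-231. The H3K27me3 lists were not: MDA-MB-231 replicate 1 had 8493 peaks over 6.54 Mb, against 29014 to 30564 peaks in the other 3, and only 8.42% of its peaks had a score of 100 or more. The H3K9me2 lists had 10700 and 8925 peaks in MCF-10A and 6192 and 5080 in MDA-MB-231. Read counts are not in the lists. Depth is therefore unknown, and a missing peak means only that none was called. Cover below is the number of bases of a window, or of a region made by merging overlapping peaks of the 4 lists of a mark, that lie under peaks of a list. Adjusted p-values are from limma on log2 of the cover plus 100 bp, fitted to all 18048 H3K4me3 or all 66286 H3K27me3 regions with Benjamini-Hochberg adjustment. No ratio is given where a line has no peak, because it would depend on the added 100 bp. Every cadherin region called had 0 bp in both lists of a line, so these calls are not evidence apart from the pattern of peaks. The two-sided exact permutation test of window cover cannot go below p = 0.333 with 2 against 2 lists, and it gave that value for 9 of the 14 gene and mark pairs with any peak (5 for H3K4me3 and 4 for H3K27me3).

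CDH1, which encodes E-cadherin, carried a strong H3K4me3 peak in MCF-10A and none in MDA-MB-231. Peaks covered 1729 and 1645 bp of the window in MCF-10A replicates 1 and 2 and 0 bp in both MDA-MB-231 replicates. The 2 lines did not overlap, and the mean in MCF-10A was 1687 ± 59.4 bp (SD, n = 2). The region, chr16:68770871-68772617, ran from 324 bp upstream to 1422 bp downstream of the start at 68771195 (limma adjusted p = 0.00174). Both peaks had the score 3100 that many H3K4me3 peaks share, at the 94.2 and 84.9 percentiles of their lists. In MDA-MB-231 the nearest H3K4me3 peak was 80.9 kb and 106.0 kb away in replicates 1 and 2. The number of H3K4me3 peaks in the wider surroundings was alike in the lines. Within 1 Mb of the CDH1 start the lists held 33, 34, 34 and 32 (MCF-10A replicates 1 and 2, then MDA-MB-231 replicates 1 and 2). These counts include the peaks at CDH1 itself and at CDH3, and they do not show whether the same sites were marked in both lines.

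CDH3, which encodes P-cadherin of basal epithelial cells, showed the same picture 92.2 kb away on chromosome 16. H3K4me3 covered 2455 and 2187 bp in MCF-10A and 0 bp in both MDA-MB-231 lists, a mean of 2321 ± 189.5 bp (SD, n = 2) against 0. The region, chr16:68678274-68680728, reached from 726 bp upstream to 1728 bp downstream (limma adjusted p = 0.00174). These peaks also had the score 3100, and they were wide for their lists, at the 95.0 and 89.7 percentiles of width. In RefSeq the lncRNA gene CDH3-AS1 overlaps the CDH3 start on the other strand, so the mark there cannot be assigned to either gene. Between the CDH3 and CDH1 windows no list of any mark held a peak.

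CDH2, which encodes N-cadherin, also had H3K4me3 in MCF-10A only, but in weaker peaks. Cover was 1610 and 1328 bp in MCF-10A and 0 bp in both MDA-MB-231 lists. In MCF-10A replicate 1 it came as a pair of peaks of 491 and 1119 bp, at the 5.0 and 21.3 percentiles of score, and in replicate 2 as 1 peak of 1328 bp at the 34.1 percentile. These scores lie far down the lists in which the CDH1 and CDH3 peaks stood near the top. The region, chr18:25756692-25758329 around the start at 25757445, passed the test (limma adjusted p = 0.00203). Without MDA-MB-231 replicate 1 the adjusted p from limma was 0.0503, just above the threshold of 0.05. H3K4me3 peaks were few around CDH2 in every list, with 2, 1, 0 and 1 within 1 Mb. The 2 and 1 in MCF-10A replicates 1 and 2 were the peaks at the CDH2 start itself.

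CDH13, which encodes T-cadherin, a cadherin held in the membrane by a lipid anchor and without a cytoplasmic tail, had H3K4me3 just downstream of its start in MCF-10A. Cover was 1189 and 1420 bp in MCF-10A and 0 bp in both MDA-MB-231 lists. The peaks began 337 and 261 bp after the start at 82660399, so that neither lay over it. Their scores were low, at the 24.1 and 29.9 percentiles. The region was chr16:82660660-82662079 (limma adjusted p = 0.00217), and the nearest H3K4me3 peak in MDA-MB-231 was 456.0 and 456.3 kb from the start.

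CDH4, which encodes R-cadherin, first described in retina, was the only member with H3K4me3 over its start in all 4 lists. Cover was 2471 and 2429 bp in MCF-10A and 2587 and 2453 bp in MDA-MB-231, so the lines overlapped. The log2 ratio of MDA-MB-231 over MCF-10A in the region chr20:59826647-59829339 was 0.04 with an SE of 0.058 (limma adjusted p = 0.696). The peaks stood high in all 4 lists, at the 64.5 and 84.9 percentiles of score in MCF-10A and 95.1 and 92.2 in MDA-MB-231.

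CDH11, which encodes OB-cadherin of osteoblasts and mesenchymal cells, had the widest H3K4me3 peaks of the family, and they were in MDA-MB-231. Window cover was 0 and 196 bp in MCF-10A and 4307 and 3624 bp in MDA-MB-231, a mean of 98 ± 138.6 bp against 3965.5 ± 483 bp (SD, n = 2). The main region, chr16:65153995-65158046, ran from 2127 bp upstream to 1924 bp downstream of the start at 65155919 and had 0 bp in both MCF-10A lists (limma adjusted p = 0.00174). Its peaks of 4052 and 3380 bp stood at the 99.6 and 98.8 percentiles of width and the 87.1 and 79.5 percentiles of score. The 196 bp in MCF-10A replicate 2 belonged to a narrow upstream peak that both MDA-MB-231 lists also held, at 255 and 244 bp, about 2.7 kb before the start. That region, chr16:65158598-65158852, did not pass the test (log2 ratio 1.02, SE 0.64, limma adjusted p = 0.441), and without MCF-10A replicate 2 it did (limma adjusted p = 0.0226).

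The remaining members, CDH5 of endothelial cells (VE-cadherin) and CDH6 of fetal kidney (K-cadherin), had no H3K4me3 within 5 kb in any list. The nearest H3K4me3 peak to CDH5 was 39.9 to 40.0 kb downstream in all 4 lists. For CDH6 it was 337.5 to 337.7 kb away, also in all 4. At these starts the lines could not be set apart by this mark.

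**Figure D2:**
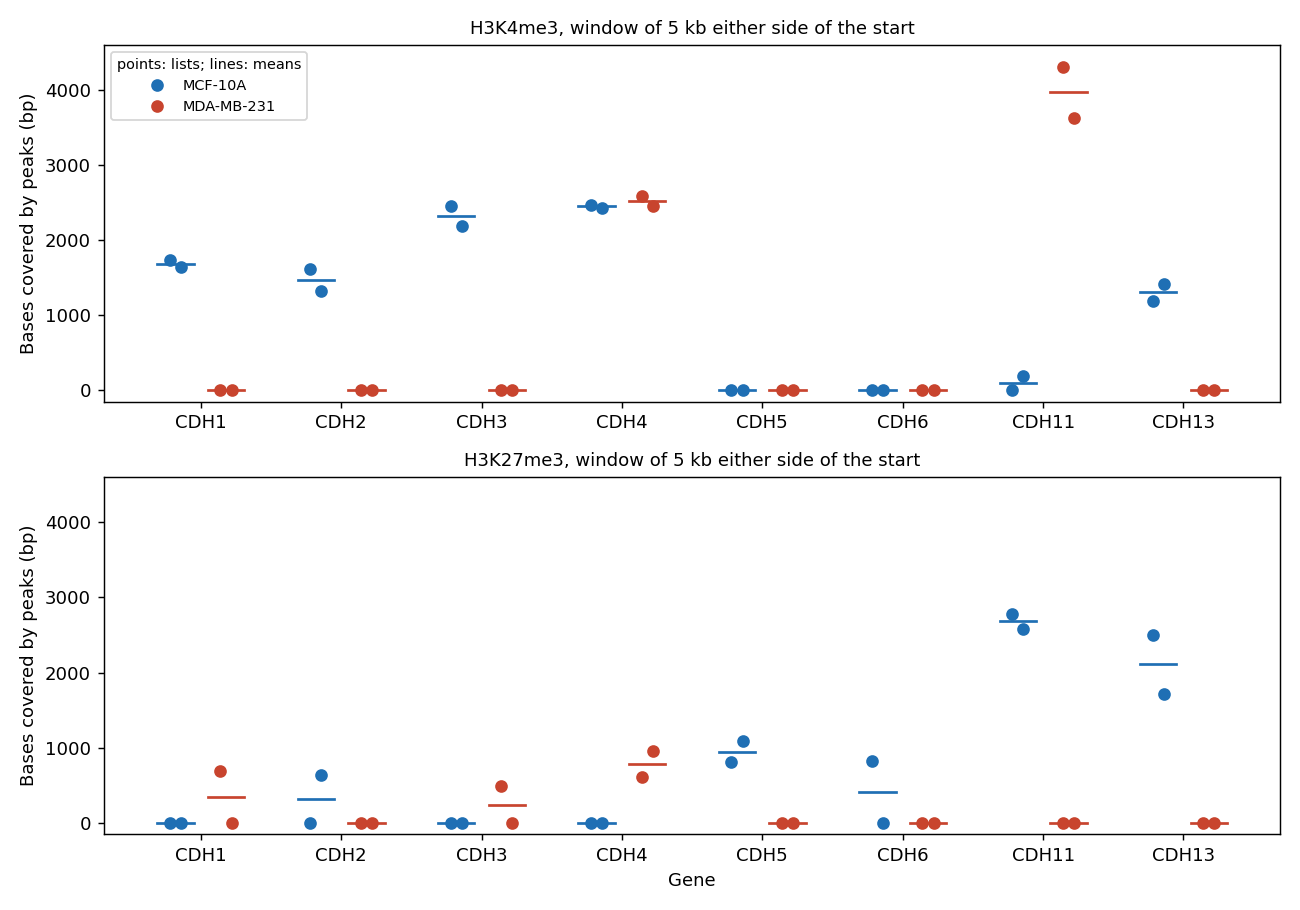
Bases under peaks within 5 kb of each cadherin start (vertical axis, bp) for H3K4me3 above and H3K27me3 below, with 1 point per list and a line at the mean of the 2 lists of MCF-10A (blue) or MDA-MB-231 (red). For H3K4me3 the MDA-MB-231 points are at 0 for CDH1, CDH2, CDH3 and CDH13 and at 4307 and 3624 bp for CDH11, and for H3K27me3 the MCF-10A points are highest at CDH11.

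The 8 starts gave 7 H3K4me3 regions, of which limma called 4 higher in MCF-10A and 1 higher in MDA-MB-231. Over all H3K4me3 regions, 7.52% were called higher in MCF-10A and 8.57% higher in MDA-MB-231. No median over the 7 is given, since most of their ratios are against a line with no peak. The members were picked with such results in view, so these counts describe the 8 genes and do not set the family apart.

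**Figure D3:**
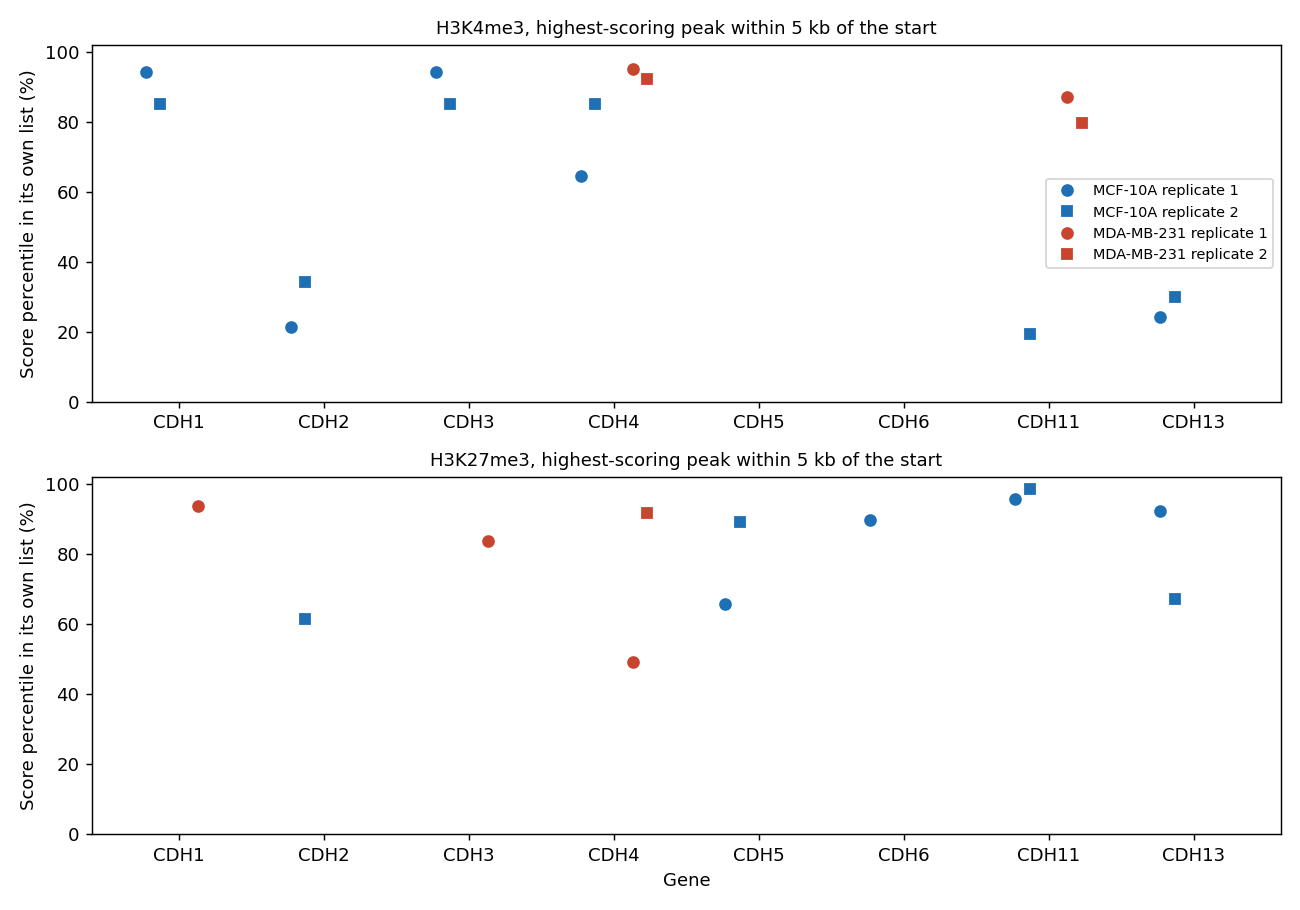
Percentile of score within its own list (vertical axis, percent) of the highest-scoring H3K4me3 (above) and H3K27me3 (below) peak within 5 kb of each cadherin start, with circles for replicate 1 and squares for replicate 2, MCF-10A in blue and MDA-MB-231 in red. Ties at the score 3100 put CDH1 and CDH3 at the same percentiles, 94.2 and 84.9, whereas CDH2 and CDH13 lie at or below 34.1.

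H3K27me3, the Polycomb mark, was most prominent at CDH11 in MCF-10A. Peaks covered 2784 and 2584 bp of the window in MCF-10A and 0 bp in both MDA-MB-231 lists. The region, chr16:65154561-65157427, spanned the start from 1508 bp upstream to 1358 bp downstream (limma adjusted p = 0.00898), and its main peaks stood at the 95.7 and 98.6 percentiles of score. The call stood without the short list, MDA-MB-231 replicate 1 (limma adjusted p = 0.00901), and lost without MDA-MB-231 replicate 2 (0.0947), a setting in which no region of the whole table passed.

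CDH13 and CDH5 also had H3K27me3 in MCF-10A only. At CDH13 cover was 2495 and 1722 bp in MCF-10A and 0 bp in MDA-MB-231, and the region next to the start, chr16:82660019-82661588, held 1570 and 890 bp of it (limma adjusted p = 0.0133). The other 3 CDH13 regions, further upstream, each had a peak in a single MCF-10A list. At CDH5 cover was 806 and 1087 bp in MCF-10A and 0 bp in MDA-MB-231, in the region chr16:66396518-66397694, which lay 2831 to 4007 bp upstream of the start at 66400525 (limma adjusted p = 0.0137). Without MDA-MB-231 replicate 1, limma gave an adjusted p of 0.121 for CDH13 and 0.0618 for CDH5, and with cover scaled to each list's total 0.0557 and 0.0646, so neither call stood in those settings. The fitted differences stayed about as large there, and the cover in MDA-MB-231 was 0 bp in each list. RefSeq places the gene LOC105371318 over the CDH5 start. The mark lay upstream of that start, and whether it lies within LOC105371318 was not worked out.

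CDH4 was the reverse case, with H3K27me3 upstream of its start in MDA-MB-231. Cover was 0 bp in both MCF-10A lists and 610 and 958 bp in MDA-MB-231, at the 49.3 and 91.8 percentiles of score. The region, chr20:59822716-59823755, ended 3727 bp before the start (limma adjusted p = 0.0179), and the call was lost when MCF-10A replicate 1, MCF-10A replicate 2 or MDA-MB-231 replicate 2 was left out (limma adjusted p = 0.108, 0.109 and 0.109). It also lay near the limit of the window. The peak of MDA-MB-231 replicate 2 began 4766 bp upstream, and the next, which began 5763 bp upstream and ended 5283 bp upstream, fell outside it.

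At the other 4 starts H3K27me3 was called in 1 list only, and none of these regions passed the test (limma adjusted p = 0.433 for each). CDH6 had 825 bp over its start in MCF-10A replicate 1, at the 89.7 percentile of score, and CDH2 had 635 bp in MCF-10A replicate 2, from 1244 bp downstream of its start. CDH1 had 693 bp over its start and CDH3 had 488 bp, from 989 bp downstream, both in MDA-MB-231 replicate 1, the short list. There they stood at the 93.8 and 83.9 percentiles of score. In MDA-MB-231 replicate 2, with 30564 peaks in all, the nearest H3K27me3 peak was 120.1 kb from the CDH1 start and 27.9 kb from that of CDH3.

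Of the 11 H3K27me3 regions at the cadherin starts, limma called 3 higher in MCF-10A and 1 higher in MDA-MB-231, where 10.6% and 2.92% of all H3K27me3 regions were so called. The median log2 ratio of all H3K27me3 regions gave no steady direction to read these counts against. It was -1.21 as fitted and -1.07 with cover scaled to each list's total, -2.25 and -0.45 with 20 and 500 bp added in place of 100 bp, but 1.23 with lists of equal length and 0.65 and 0.67 without MCF-10A replicates 1 and 2. A peak of H3K27me3 in at least 1 list lay within 5 kb of the midpoint of 14.8% of all H3K4me3 regions, which is set beside the 8 of 8 starts, although starts without H3K4me3, such as those of CDH5 and CDH6, are not among those regions.

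The low H3K27me3 cover in MDA-MB-231 at CDH5, CDH11 and CDH13, all on chromosome 16, extended beyond their starts. Within 1 Mb of CDH11 the lists held 12 and 10 H3K27me3 peaks in MCF-10A and 1 and 2 in MDA-MB-231, around CDH5 43 and 42 against 5 and 15, and around CDH13 28 and 27 against 4 and 10. This was not limited to chromosome 16, since around CDH2 on chromosome 18 the counts were 5 and 9 against 0 and 0. Around CDH6 they were 8 and 13 against 5 and 35, and around CDH4 22 and 21 against 30 and 94. For CDH1 the counts were 17 and 24 against 2 and 11, and for CDH3 25 and 29 against 2 and 11, in stretches that largely overlap. At those starts the only H3K27me3 within 5 kb was in MDA-MB-231 replicate 1. MDA-MB-231 replicate 2 held more H3K27me3 peaks in all than either MCF-10A list. A stretch of 18.18 Mb of chromosome 16 was chosen after its values were seen, as the gap around CDH11 between H3K9me2 peaks of the MDA-MB-231 lists. It lies between peaks ending at 55855350 and beginning at 74038503 and holds CDH1, CDH3, CDH5 and CDH11. By this definition it had no H3K9me2 peak in either MDA-MB-231 list, and it had 125 and 113 in MCF-10A. H3K27me3 peaks in it numbered 288 and 303 in MCF-10A and 13 and 54 in MDA-MB-231, whereas H3K4me3 peaks numbered 149 and 155 against 151 and 146. H3K9me2 gaps at least as long numbered 20 and 16 in the MDA-MB-231 lists and 2 and 2 in those of MCF-10A. The part of this stretch in the H3K27me3 differences at CDH5 and CDH11 was not tested, and the inputs, which would show how much DNA of the stretch MDA-MB-231 holds, were not analysed here.

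H3K4me3 and H3K27me3 overlapped within a line at CDH13 alone. At CDH13 in MCF-10A, H3K27me3 overlapped H3K4me3 by 853 bp in the replicate 1 lists and 652 bp in the replicate 2 lists, which was 71.7% and 45.9% of the H3K4me3 cover. Such overlap in both lists of both marks of MCF-10A occurred at 2.21% of the 13804 H3K4me3 regions shared by the MCF-10A lists. With only peaks of score 100 or more it was gone, because the H3K27me3 peak of replicate 2 scored 81.5. The libraries were made from separate immunoprecipitates, so overlap does not place both marks on the same nucleosome or in the same cells.

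At CDH11 the marks changed places between the lines. The H3K27me3 of MCF-10A lay wholly inside the H3K4me3 of MDA-MB-231 and took up 64.6% and 71.3% of it between lists of replicate number 1 and of replicate number 2. Of the 1131 H3K4me3 regions found in both MDA-MB-231 lists only, 15.2% overlapped H3K27me3 of both MCF-10A lists and of no MDA-MB-231 list, so CDH11 was 1 of 172 such regions. At CDH4 in MDA-MB-231 the marks were neighbours and did not overlap, and H3K27me3 of both lists lay within 5 kb of the midpoint of 1.48% of the 13952 H3K4me3 regions shared by the MDA-MB-231 lists.

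At CDH1 and CDH3 the H3K27me3 of MDA-MB-231 replicate 1 fell inside the MCF-10A H3K4me3, over 40.1% to 42.1% of it at CDH1 and 19.9% to 22.3% at CDH3. Among the 1067 H3K4me3 regions of MCF-10A only, 12.1% overlapped H3K27me3 of at least 1 MDA-MB-231 list, and 1.59% overlapped that of replicate 1 and not replicate 2, as these do. The latter share was 0.202% of the 12367 H3K4me3 regions in all 4 lists. This class was shaped on what CDH1 and CDH3 showed, so its shares lend their H3K27me3 peaks no weight. The share with at least 1 MDA-MB-231 list was not worked out for the regions in all 4 lists. With the peak in 1 of 2 lists, H3K27me3 in MDA-MB-231 at these starts did not exceed the spread between replicates.

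H3K9me2 was absent within 5 kb of all 8 starts in all 4 lists, and it lay within 5 kb of the midpoint of 6.74% of all H3K4me3 regions. Within 50 kb, a distance chosen after the data were seen, it appeared at CDH4 and CDH5 only. Around CDH5 it covered 6234 and 5631 bp in MCF-10A, from 12.6 kb downstream of the start, and 0 bp in MDA-MB-231. H3K27me3 lay on the other side of that start, in 14 and 12 peaks over 11421 and 9435 bp in MCF-10A against 0 and 3 peaks over 0 and 1394 bp in MDA-MB-231. The pair of marks thus flanked the CDH5 start in MCF-10A, H3K27me3 upstream and H3K9me2 downstream.

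Around CDH4 the direction was opposite. H3K9me2 within 50 kb covered 2821 and 1518 bp in MCF-10A and 14520 and 9441 bp in MDA-MB-231, and the lines did not overlap. H3K27me3 covered 0 and 692 bp in MCF-10A and 2579 and 7682 bp in MDA-MB-231, in 4 and 11 peaks in the latter. Within 1 Mb of CDH4, H3K9me2 peaks numbered 11 and 8 in MCF-10A and 81 and 69 in MDA-MB-231. Over all H3K9me2 regions, 9.12% had peaks in both MDA-MB-231 lists only and 23.4% in both MCF-10A lists only. How many windows of 50 kb or 1 Mb differ so was not worked out. The H3K4me3 peaks over the CDH4 start were as wide in MDA-MB-231 as in MCF-10A while the 50 kb around held more of both repressive marks. The inputs, which would show how much DNA each line holds there, were not analysed here.

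**Figure D4:**
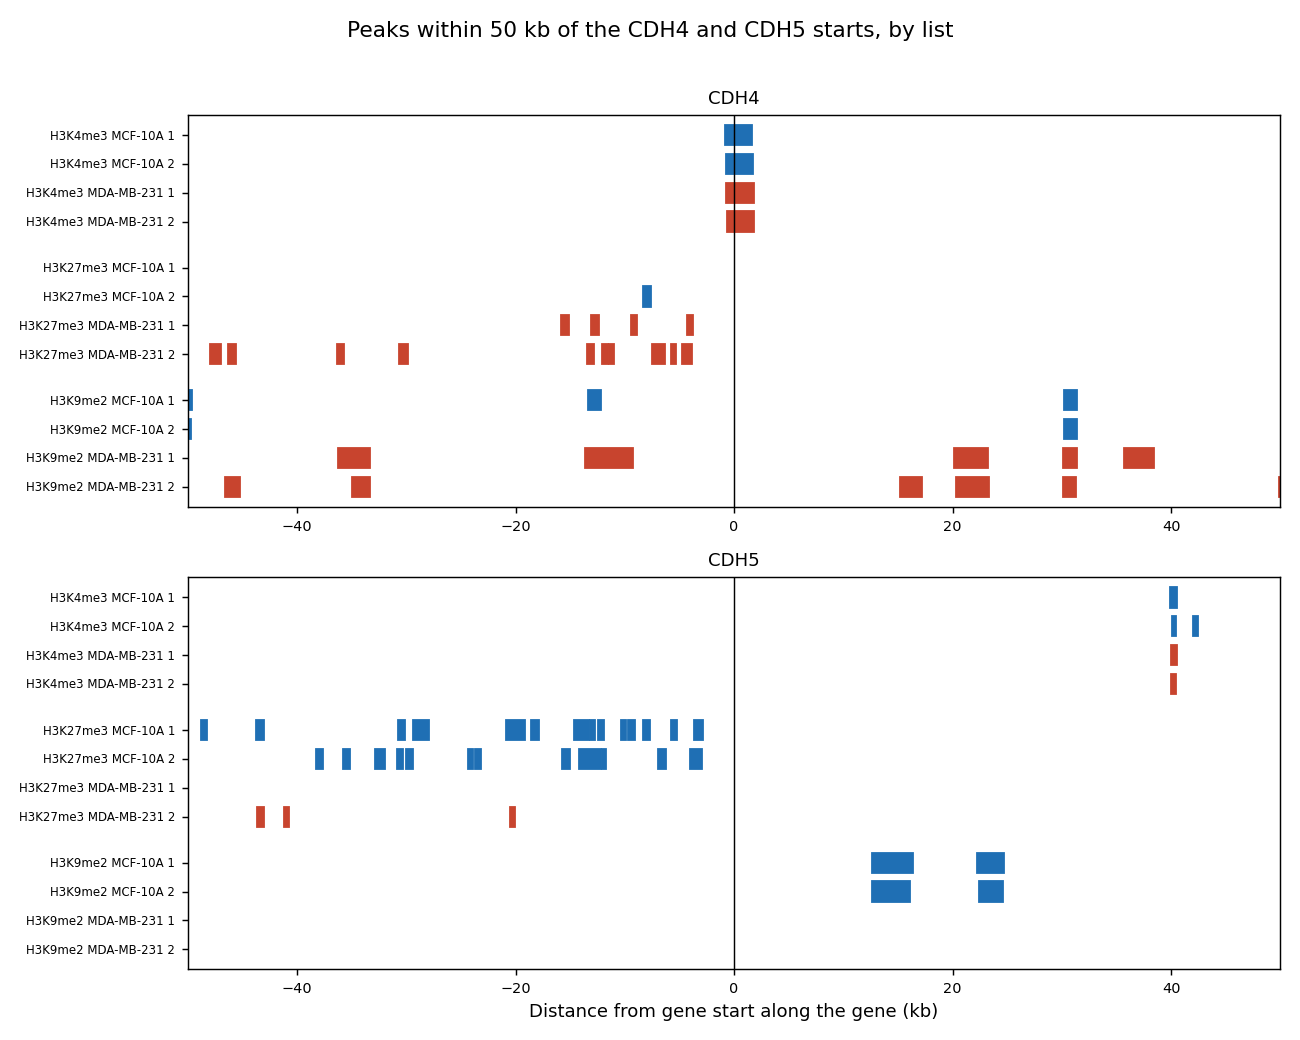
Peaks of the 3 marks within 50 kb of the CDH4 (above) and CDH5 (below) starts, drawn to scale against the distance from the start along the gene in kb (negative is upstream), 1 row per list, MCF-10A in blue and MDA-MB-231 in red. Around CDH4 the H3K27me3 and H3K9me2 bars are mostly in the MDA-MB-231 rows, with 4 and 11 H3K27me3 peaks, and around CDH5 they are mostly in the MCF-10A rows, with 14 and 12.

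The count of starts with H3K4me3 in MCF-10A only changed in fewer settings than that with H3K27me3 in MCF-10A only. The latter fell from 3 starts to 1 with peaks of score 100 or more and with lists of equal length. CDH1, CDH2, CDH3 and CDH13 were the 4 starts of the former at windows of 1, 2, 5, 10 and 50 kb. They stayed so with peaks of score 100 or more and with lists of equal length. Leaving out a list could not take these 4 out of the pattern. A limit on score or list length could do so only by removing MCF-10A peaks. These limits removed far fewer H3K4me3 than H3K27me3 peaks. Scores of 100 or more were held by 87.67% to 91.19% of the peaks of the H3K4me3 lists and by 8.42% to 26.21% of those of the H3K27me3 lists. Lists of equal length had 15625 peaks for H3K4me3 and 8493 for H3K27me3. How steady the marks are therefore cannot be compared by these limits. The alternatives that follow are of limma calls and not of patterns. For H3K27me3 the 11 alternatives include 1, without MDA-MB-231 replicate 2, in which no region of the whole table passed. CDH11 was called in the other 10, CDH5 and CDH13 in 6 and CDH4 in 5. Why a call was lost on leaving out a list was not tested.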

How the data were processed

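Peak positions of H3K4me3, H3K27me3 and H3K9me2 were taken from 12 deposited lists, 1 per replicate, with 16 samples in the series. The authors' lists give chromosome, start, end, name and a score per peak. The sources used here do not give its scale. The score deposited by the authors was at least 50 and was used here to rank peaks of 1 list or to set a minimum. Per the submitters' processing notes, the tools were MACS 1.4, CASAVA 1.6, bedtools and Bowtie2 and the build was hg19, with no roles, settings or order. Per the labels' protocols, replicates were normalised and joined for later work, whereas the lists are per replicate.

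The 8 cadherins and their hg19 starts, and the lists of further genes, were chosen with earlier results of these data known. All 8 members are named for every mark. Peaks overlapping a window of 5 kb either side of a start by at least 1 bp were kept, and coordinates count from 1. Peaks of the 4 lists of a mark on chromosomes 1 to 22 and X were joined into regions on any overlap, and log2(covered bp + 100) was tested with limma 3.58.1 (trend, empirical Bayes) in R 4.3.3, MDA-MB-231 against MCF-10A without a replicate block, with an adjusted p threshold of 0.05. The limma step was tested on simulated cover that held no value of 0. That test does not bear on regions with 0 bp in both lists of a line, as the cadherin regions called have. Python 3.11.15, NumPy 2.4.6, pandas 2.3.3 and matplotlib 3.10.9 were used for the rest. Each group had only 2 lists, which limits precision. For each limma p-value, empirical Bayes combined the variance within groups with a trend fitted over all regions of the mark. Such p-values therefore do not reflect the lists of 1 region alone. A line with 0 bp in both lists adds no spread of its own, which does not measure how well its replicates agree. With a pseudocount of 20 bp, H3K27me3 calls numbered 7389 higher in MCF-10A and 1982 higher in MDA-MB-231. Regions with H3K27me3 peaks in MCF-10A only and in MDA-MB-231 only had the same numbers. The planned region test of H3K9me2 is not reported, since no such region lies at a cadherin start. Catenins, further cadherins and cell type markers were to be read with an hg19 annotation, which was not used here, so they have no values, and exons and introns under peaks were not analysed here. RefSeq tables on GRCh38.p14 gave neighbouring genes (8 of 8 members matched) and promoter sequence (2 of 8 had entries, those of CDH4 at internal starts). Alternatives were other windows, scores, list lengths, pseudocounts, a filter on regions, scaling, a replicate block and each list left out; windows of 50 kb were added after seeing the data.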

Additional observations from a re-analysis of the deposited data

How the results depend on the processing

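The cause of the changes below was not tested. Among starts with H3K4me3 in MDA-MB-231 only, the count of 0 became 1 (CDH11) with windows of 1 or 2 kb or at least 500 bp covered, and 0 to 1 when leaving out each list. Starts with it in all lists numbered 2 at 50 kb and 1 to 2 when leaving out each list, against 1. Starts with H3K27me3 in MCF-10A only fell from 3 to 1 at scores from 100 and at equal list lengths. Those in MDA-MB-231 only numbered 0 with windows of 1, 2 and 10 kb or scores from 100, and 1 to 3 when leaving out each list, against 1. H3K27me3 in any list held at 5 of 8 starts with windows of 1 kb. H3K9me2 appeared at 1 start with windows of 10 kb and at 2 with 50 kb. Both active and Polycomb marks in MCF-10A were at 2 starts at 50 kb, 0 at scores from 100 or equal list lengths, 3 with either replicate enough and 1 to 3 when leaving out each list, against 1; in MDA-MB-231 they were at 0 with windows of 1 or 2 kb or scores from 100.

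Over all regions, H3K4me3 calls were 1357 higher in MCF-10A and 1546 higher in MDA-MB-231, and leaving out each list they were 668 to 2042 and 677 to 1819. For H3K27me3 they were 7042 and 1938, against 2602 and 531 with a pseudocount of 500 bp, 1123 and 437 with scaled cover, and 2816 and 202 at scores from 100; with equal list lengths, 2804 were higher in MCF-10A. Leaving out each list they were 0 to 20426 and 0 to 20757, so this count turned on which list was left out. Of the cadherin regions, H3K4me3 calls higher in MDA-MB-231 rose from 1 to 2 at most without a list. H3K27me3 calls higher in MCF-10A were 1 with scaled cover, scores from 100 or equal list lengths and 0 to 6 without a list, against 3. The call higher in MDA-MB-231 (CDH4) was 0 with a pseudocount of 500 bp, scaled cover or scores from 100, and 0 to 1 without a list. The direction reversed at CDH4 H3K4me3 alone, to -92 bp with windows of 1 kb and to a log2 ratio of -0.006 with scaled cover, neither past the test. The replicate numbers share only a number (correlation of replicate differences 0.083 and 0.0031); with the replicate block the cadherin calls numbered 4 and 1 for H3K4me3 and 3 and 1 for H3K27me3, as without it, and the adjusted p at CDH1 H3K4me3 was 0.0159 (limma). Depth is unknown.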
